A study of Mus musculus with 4 samples.

Results

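Messenger RNA of 40 lysosomal genes was examined in gWAT (gonadal white adipose tissue, the visceral fat around the gonads) of obese mice. The genes were listed by name for their known lysosomal roles and not by a threshold on their values. They are 10 proteases, 8 glycosidases, 4 sulfatases, 7 enzymes and carriers of lipid breakdown, 7 membrane proteins, the granulin precursor Grn, and the 3 transcription factors Tfeb, Tfe3 and Mitf. All 40 were found among the 45706 genes of the deposited table, and all 40 had the mean of at least 1 TPM (a transcript level corrected for gene length and scaled to the same total in every sample) that was required for testing. Of all genes, 13788 passed that filter.

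Lysosomes are acidic vesicles in which hydrolases break down proteins, glycans, lipids and whole organelles, and in obese fat they are abundant in the macrophages that take up lipid and dying adipocytes. Senescent cells enlarge this compartment, and the stain for senescence-associated β-galactosidase (SA-β-gal) reads the activity of the lysosomal enzyme encoded by Glb1. Tfeb, Tfe3 and Mitf encode related transcription factors that bind E-box motifs in promoters of lysosomal genes, and their activity is set largely by whether the protein is held in the cytoplasm.

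The mice were C57B6/N males on a high-fat diet (HFD) for 2 months, and both groups ate it. The HFD group (n = 2 mice) was the untreated control. In the HFD+Cana group (n = 2 mice) canagliflozin, an inhibitor of the glucose transporter SGLT2 of the kidney, was mixed into the same food at 0.03% by weight for 7 days. The age of these mice is not given in the labels, no group on normal chow was analysed here, and whole tissue was used, so that fewer cells of a type and less RNA per cell cannot be told apart. The comparison asks whether a week of SGLT2 inhibition, which the study tested for its effect on SA-β-gal activity, went with a different level of lysosomal mRNA.

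No lysosomal gene passed the test for a difference between groups. By limma on log2(TPM + 1), with Benjamini-Hochberg adjustment over all 13788 genes, 0 of 40 were called higher and 0 of 40 lower at an adjusted p under 0.05, against 0.0435% and 0% of all genes. The adjusted p of the 40 genes ran from 0.270 to 0.999. At an unadjusted p under 0.05, 5 of 40 were lower in HFD+Cana (Glb1, Galns, Npc2, Naglu and Smpd1), where 5.45% of all genes were, and 0 of 40 were higher, where 5.32% of all genes were. The count of 5 became 8 under quantile normalization (5.84% of all genes) and 8 under median-of-ratios scaling (6.19%). When a mouse was left out, so that 1 mouse stood for a group, the count depended on which mouse it was. In 10 of the 40 genes both HFD+Cana mice lay below both HFD mice, a pattern held by 19.8% of all genes, and in 4 both lay above, a pattern held by 24.3%. The groups overlapped in the other 26. These counts also rest on single mice. With HFD replicate 2 left out 26 genes were below (34.5% of all genes), and with HFD+Cana replicate 1 left out 25 (38.3%). Leaving out HFD replicate 1 instead gave 11 of 40 below, beside 30% of all genes. Leaving out HFD+Cana replicate 2 gave 10 of 40, also beside 30%. With HFD replicate 1 left out 13 were above (38.2% of all genes), and with HFD+Cana replicate 2 left out 12 (43.6%). Leaving out HFD replicate 2 gave 6 above (37.4% of all genes), and leaving out HFD+Cana replicate 1 gave 5 (36%). With 2 mice a group, an exact permutation test of a single gene cannot give a two-sided p under 0.333.

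The median log2 fold change of the 40 genes was -0.075 for HFD+Cana against HFD, beside 0.019 over all genes tested. It moved to -0.22 without HFD replicate 2, to -0.20 without HFD+Cana replicate 1 and to 0.031 without HFD+Cana replicate 2. Glycosidases had the lowest median by role, -0.21, with 4 of 8 below in both treated mice, where 19.8% of all genes were. The lipid group followed with -0.17 and 2 of 7, then the proteases with -0.11 and 2 of 10, near that share. The sulfatases had -0.11 and 2 of 4. Each count rests on few genes and 2 mice a group. Membrane proteins (0.041) and the Tfeb family (0.042) had medians above 0, and no gene of either group lay below in both treated mice. The plot of fold changes by gene shows this order and the width of the intervals.

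**Figure D1:**
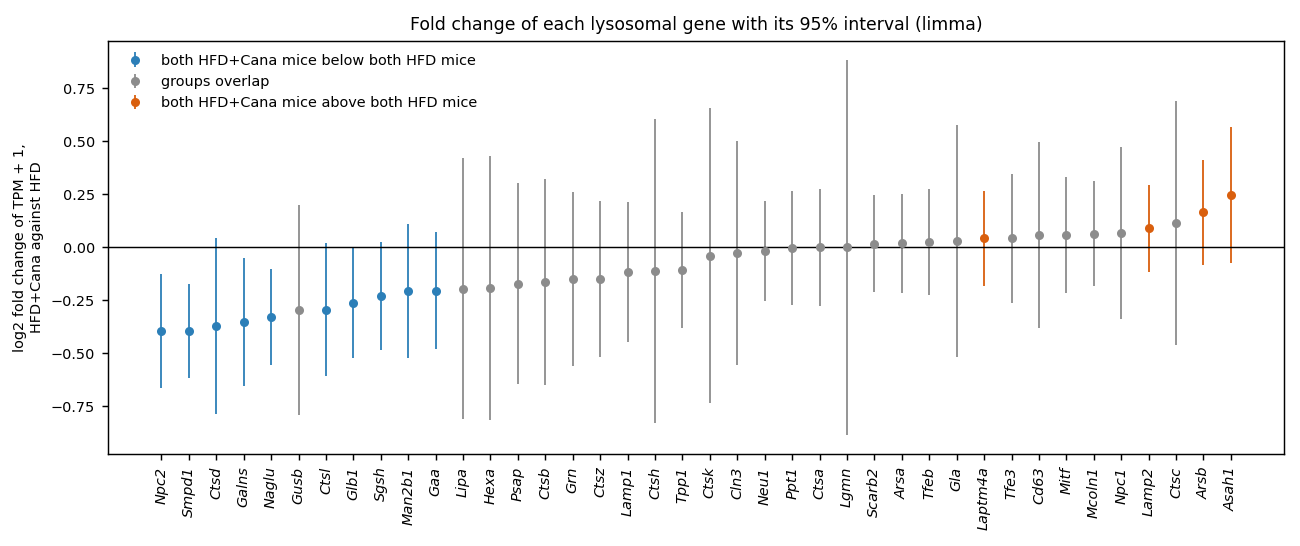
Log2 fold change of TPM + 1 for HFD+Cana against HFD (vertical axis) for each of the 40 lysosomal genes, ordered by value; points are limma estimates and lines their 95% intervals. The 10 blue genes lay below HFD in both treated mice and the 4 orange genes above. The estimates run from -0.40 (Npc2) to 0.25 (Asah1), and none passed at an adjusted p under 0.05.

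Glb1 encodes the acid β-galactosidase itself. It lies on the forward strand of chromosome 9 (114401076 to 114474898, GRCm38), and its level was 58.4 and 51.3 TPM in the HFD mice and 46.6 and 44.3 TPM in the HFD+Cana mice. Both treated mice lay below both controls, although the lower control and the upper treated mouse were closer to each other than the HFD mice were. The mean was 54.9 ± 5.02 TPM (SD, n = 2) in the HFD mice against 45.5 ± 1.61 TPM (SD, n = 2) in the HFD+Cana mice, a change of -17.1%. On the log2 scale this was -0.26 (SE 0.098, limma adjusted p = 0.457). Its 95% interval, like all intervals here not adjusted for the number of genes, was -0.52 to -0.0044. Tmppe shares part of this locus on the same strand, and its mean level was 4.41 TPM.

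In lysosomes the β-galactosidase sits in a complex with cathepsin A and the sialidase Neu1, and the sulfatase Galns has been found in it as well. Galns, which removes sulfate from keratan and chondroitin chains, stood at 27.5 and 23.0 TPM in the HFD mice and at 19.7 and 19.2 TPM in the HFD+Cana mice. It showed the same separation as Glb1, with a log2 fold change of -0.35 (SE 0.12, adjusted p = 0.424 in limma). The locus of Galns is overlapped on the other strand by Gm20388 at 41.8 TPM, and no source used here says whether reads were assigned with strand.

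The remaining partners did not separate. Ctsa, the cathepsin that protects the β-galactosidase from breakdown, was listed at 228 and 219 TPM in the HFD mice and at 240 and 207 TPM in the HFD+Cana mice, so that the controls lay between the treated mice. Its log2 fold change was -0.0013 (SE 0.10, 95% interval -0.28 to 0.27), and its sign turned under other scalings, to 0.077 with quantile normalization and 0.0059 without mitochondrial genes. Pltp, at 636 TPM, overlaps Ctsa on the other strand. Neu1 had 45.3 and 40.8 TPM in the HFD mice and 42.0 and 42.9 TPM in the HFD+Cana mice, with a log2 fold change of -0.017 (SE 0.090, 95% interval -0.25 to 0.22). The mRNAs of Glb1 and Galns were thus lower in both treated mice without passing the test, and those of Ctsa and Neu1 overlapped.

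**Figure D2:**
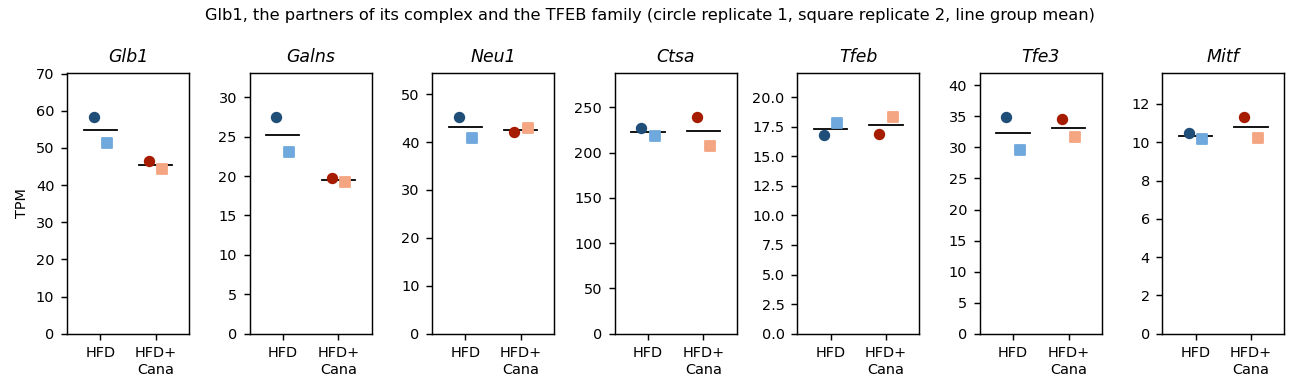
TPM (vertical axis, from 0, each panel with its own scale) of Glb1, the partners of its enzyme complex and the Tfeb family in each mouse; circles are replicate 1, squares replicate 2 and lines the group means. Glb1 (58.4 and 51.3 against 46.6 and 44.3 TPM) and Galns separate the groups, and the other 5 genes overlap.

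Promoters of 4 of these genes are printed to show windows with and without the E-box that the Tfeb family binds. RefSeq windows of GRCm38.p6, from 250 bases before to 50 bases after the start of transcription, were matched for 35 of the 40 genes and not for Galns, Ctsh, Npc1, Ctsb and Asah1. Capitals mark the palindromic motif CACGTG, or TCACGTGA where the longer palindrome that contains it was present. Windows read 5′ to 3′ on the strand of the gene. The window of Glb1 (chr9:114400828-114401127, forward strand) holds 1 CACGTG that starts 48 bases before the start site. That of Ctsd (chr7:142387778-142388077, reverse strand), the protease of highest level, holds a CACGTG at -245 and a TCACGTGA at -99. The windows of Npc2 (chr12:84773063-84773362, reverse strand), which like Glb1 and Ctsd was below the controls in both treated mice, and of Lamp2 (chrX:38456411-38456710, reverse strand), which was above them, hold neither.
Glb1: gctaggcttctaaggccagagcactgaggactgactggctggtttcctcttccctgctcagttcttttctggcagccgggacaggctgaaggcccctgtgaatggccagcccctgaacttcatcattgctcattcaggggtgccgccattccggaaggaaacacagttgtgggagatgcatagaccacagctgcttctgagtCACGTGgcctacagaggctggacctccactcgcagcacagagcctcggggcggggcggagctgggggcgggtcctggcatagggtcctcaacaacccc
Ctsd: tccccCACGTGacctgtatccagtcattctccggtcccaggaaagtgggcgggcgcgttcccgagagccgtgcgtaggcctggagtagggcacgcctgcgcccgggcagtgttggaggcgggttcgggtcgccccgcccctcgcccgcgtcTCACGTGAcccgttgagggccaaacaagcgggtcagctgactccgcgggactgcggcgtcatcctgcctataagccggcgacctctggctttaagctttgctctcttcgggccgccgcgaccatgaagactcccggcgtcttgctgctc
Npc2: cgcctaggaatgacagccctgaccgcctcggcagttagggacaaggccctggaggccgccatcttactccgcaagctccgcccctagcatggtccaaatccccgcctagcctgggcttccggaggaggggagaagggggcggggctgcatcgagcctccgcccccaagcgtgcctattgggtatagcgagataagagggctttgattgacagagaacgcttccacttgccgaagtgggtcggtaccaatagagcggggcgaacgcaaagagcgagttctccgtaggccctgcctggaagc
Lamp2: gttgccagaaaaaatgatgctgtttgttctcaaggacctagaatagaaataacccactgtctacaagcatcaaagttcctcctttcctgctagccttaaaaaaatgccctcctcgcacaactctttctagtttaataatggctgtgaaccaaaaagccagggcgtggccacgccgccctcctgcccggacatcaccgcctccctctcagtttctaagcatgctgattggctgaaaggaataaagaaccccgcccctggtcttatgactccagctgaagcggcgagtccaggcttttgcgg

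CACGTG was present in the windows of 13 of the 35 matched genes (37.1%), where 8.09% of 27025 genes with a window hold it. The longer TCACGTGA was present in 5 of 35 (14.3%: Cln3, Ctsa, Ctsd, Gla and Mcoln1) and in 1.12% of all genes. Among matched genes with both treated mice below the controls, 6 of 9 held CACGTG (Ctsd, Ctsl, Gaa, Glb1, Naglu and Sgsh), and Man2b1, Npc2 and Smpd1 did not. Of the matched genes above the controls 0 of 3 held it, and of those with overlap 7 of 23. The longer TCACGTGA was held by 1 of 9 below (Ctsd), 0 of 3 above and 4 of 23 with overlap, so its split differed from that of CACGTG. A match says only that these letters are in the window, and binding was not measured.

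No gene of the Tfeb family separated the groups. Tfeb, which drives lysosome formation when it enters the nucleus, had 16.8 and 17.8 TPM in the HFD mice and 16.9 and 18.4 TPM in the HFD+Cana mice. Tfe3 had 35.0 and 29.6 TPM in the HFD mice and 34.6 and 31.7 TPM in the HFD+Cana mice, and Mitf 10.5 and 10.2 against 11.3 and 10.2 TPM. The groups overlapped in all 3. Log2 fold changes were 0.025 for Tfeb (95% interval -0.23 to 0.27), 0.042 for Tfe3 (-0.26 to 0.35) and 0.057 for Mitf (-0.22 to 0.33), with limma adjusted p-values of 0.944, 0.918 and 0.871. All 3 turned sign when some single mouse was left out. Where the proteins were in the cell was not measured.

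The proteases include the lysosomal gene of highest level. Ctsd, an aspartyl protease, was the highest of all 40 genes, with 2941 and 2446 TPM in the HFD mice and 2211 and 1940 TPM in the HFD+Cana mice. Both treated mice lay below both controls, and the change of the mean was -22.9% (log2 -0.37, SE 0.16, limma adjusted p = 0.490). Ctsl, a cysteine protease that also processes other lysosomal enzymes, showed the same separation with 1173 and 1036 TPM in the HFD mice and 938 and 861 TPM in the HFD+Cana mice (log2 -0.29, SE 0.12, adjusted p = 0.478 in limma). Ctsb, its relative in macrophages and many other cells, did not separate, with 1296 and 1063 TPM in the HFD mice and 1197 and 917 TPM in the HFD+Cana mice (log2 -0.16, SE 0.19). Its sign turned without HFD+Cana replicate 2, to 0.027.

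The other proteases besides Ctsa overlapped too, with log2 fold changes from -0.15 (Ctsz, a carboxypeptidase of the cathepsin family) to 0.11 (Ctsc, the peptidase that activates granule proteases). The gap between mice of a group was wide in several of them. Lgmn, the asparagine-specific protease legumain, which matures cathepsins, was listed at 314 and 220 TPM in the HFD mice and at 354 and 195 TPM in the HFD+Cana mice. Its log2 fold change of -0.00096 had an SE of 0.34, the largest of the 40 genes. Ctsk, a collagen-degrading cathepsin, had 86.9 and 58.3 TPM in the HFD mice and 83.3 and 57.5 TPM in the HFD+Cana mice.

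Among the glycosidases, 4 of 8 were lower in both treated mice, where 19.8% of all genes were. Besides Glb1 these were Naglu, Man2b1 and Gaa. Naglu, which trims heparan sulfate, had 39.9 and 37.9 TPM in the HFD mice and 29.7 and 31.8 TPM in the HFD+Cana mice (log2 -0.33, SE 0.086, limma adjusted p = 0.331). Here the gap between the groups was larger than the distance between mice of either group. Man2b1, the lysosomal α-mannosidase, had 126 and 106 TPM in HFD against 105 and 95.1 TPM in HFD+Cana, and its upper treated mouse nearly met the lower control. Gaa, the α-glucosidase that digests glycogen, had 105 and 101 TPM against 82.2 and 96.0 TPM. The log2 fold changes of Man2b1 and Gaa were both -0.21, with SEs of 0.12 and 0.10. Gusb, the β-glucuronidase, had a larger estimate of -0.30 (SE 0.19), but its groups overlapped, with 134 and 109 TPM in the HFD mice and 114 and 84.4 TPM in the HFD+Cana mice. Hexa and Gla, which act on glycolipids, and Neu1 overlapped as well.

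The sulfatases went in both directions. Sgsh, which acts on heparan sulfate like Naglu, had 16.5 and 15.9 TPM in the HFD mice and 14.3 and 13.0 TPM in the HFD+Cana mice (log2 -0.23, SE 0.097, limma adjusted p = 0.486). Arsb, a sulfatase of dermatan and chondroitin sulfate, had 27.5 and 30.4 TPM in the HFD mice and 33.6 and 31.4 TPM in the HFD+Cana mice, both treated mice above both controls (log2 0.16, SE 0.094, adjusted p = 0.582 in limma). Galns is given above, and Arsa, the sulfatase of sulfatide, overlapped.

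The enzymes and carriers of lipid breakdown held the smallest p of the 40 genes. Smpd1, the acid sphingomyelinase that turns sphingomyelin into ceramide, had 88.7 and 84.5 TPM in the HFD mice and 63.0 and 68.1 TPM in the HFD+Cana mice. The groups lay further apart than the mice within them, and the change of the mean was -24.3% (log2 -0.40, SE 0.085, 95% interval -0.62 to -0.17, limma adjusted p = 0.270). Asah1, the acid ceramidase, acts on the product of Smpd1 and differed in the other direction. Its level was 96.7 and 88.8 TPM in the HFD mice and 121 and 100.2 TPM in the HFD+Cana mice, a change of 19.2% (log2 0.25, SE 0.12, adjusted p = 0.536 in limma). Neither gene passed the test.

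Npc2, the soluble protein that hands cholesterol to the membrane protein Npc1, had 739 and 662 TPM in the HFD mice and 535 and 526 TPM in the HFD+Cana mice. Both treated mice were close together and below both controls, and its log2 fold change of -0.40 (SE 0.10, 95% interval -0.67 to -0.13, limma adjusted p = 0.328) was the lowest of the 40 genes. Npc1 itself overlapped between groups, with 26.6 and 20.7 TPM in the HFD mice and 26.5 and 22.9 TPM in the HFD+Cana mice. Psap, the precursor of the saposins that assist sphingolipid hydrolases, had 2603 and 2135 TPM in the HFD mice and 2328 and 1881 TPM in the HFD+Cana mice, also with overlap (log2 -0.17, SE 0.18). Lipa, the acid lipase of cholesteryl esters and triglycerides, and Ppt1, the thioesterase of palmitoylated proteins, overlapped too, with log2 fold changes of -0.20 and -0.0031.

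Genes of the lysosomal membrane had log2 fold changes from -0.12 to 0.088. Lamp2, a glycoprotein of the membrane needed for fusion with autophagosomes, had 209 and 205 TPM in the HFD mice and 223 and 218 TPM in the HFD+Cana mice. Laptm4a, a transmembrane protein of late endosomes and lysosomes, had 493 and 501 TPM in the HFD mice and 509 and 514 TPM in the HFD+Cana mice. Both were above the controls in both treated mice by small amounts, 6.34% and 2.9% of the HFD mean (log2 0.088, SE 0.078, and 0.041, SE 0.085). Lamp1, the abundant relative of Lamp2, overlapped with 753 and 666 TPM in the HFD mice and 699.7 and 608 TPM in the HFD+Cana mice (log2 -0.12, SE 0.13). The log2 fold changes of the other 4, Cd63, Scarb2, Mcoln1 and Cln3, ran from -0.028 to 0.063. The granulin precursor Grn, a secreted protein that lysosomes cleave, overlapped with 564 and 467 TPM in the HFD mice and 511 and 418 TPM in the HFD+Cana mice.

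Differences between mice of one group ran through most of the genes. HFD replicate 1 was the highest of the 4 mice in 26 of 40 genes and HFD+Cana replicate 2 the lowest in 22, where over all genes tested these mice were highest in 27.2% and lowest in 28.5%. Replicate 2 was below replicate 1 in 35 of 40 genes in HFD and in 32 of 40 in HFD+Cana, and in both groups in 29 (72.5%), against 36.4% of all genes. The replicate numbers only name the mice. Summed over the 40 genes, the level was 14462 and 12285 TPM in the HFD mice and 12768 and 10761 TPM in the HFD+Cana mice, or between 1.08% and 1.45% of all TPM, and the groups overlapped.

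**Figure D3:**
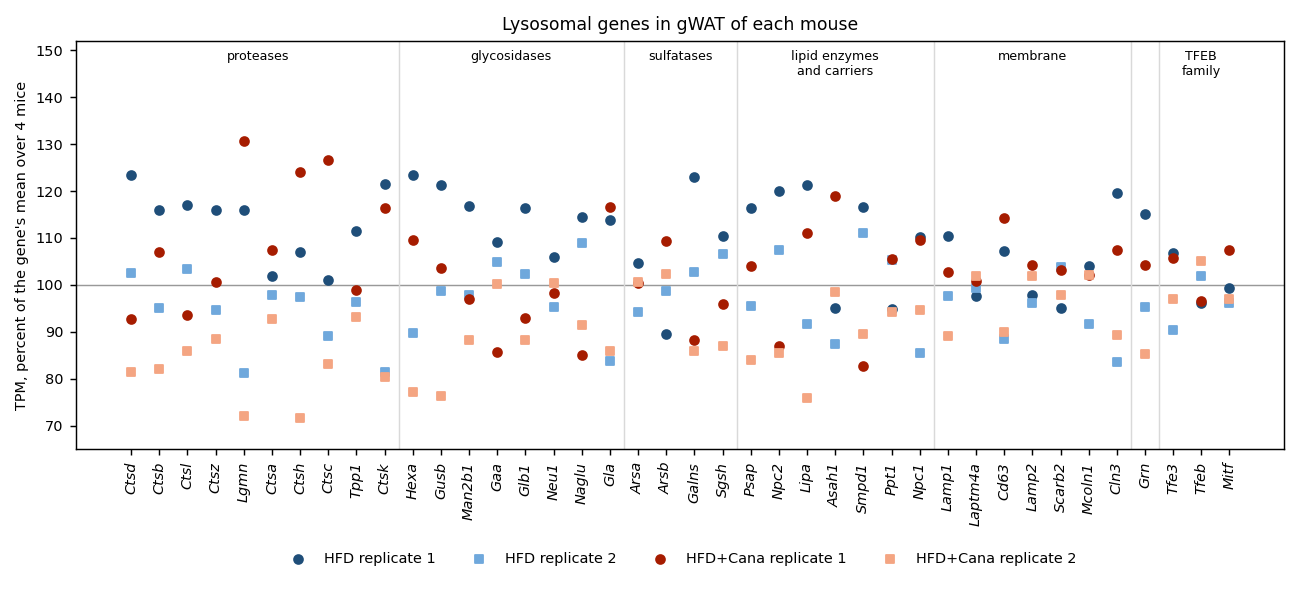
TPM of each lysosomal gene in each mouse as a percentage of the gene's mean over the 4 mice (vertical axis), with genes ordered by role and, within a role, by level. Dark circles are replicate 1 and light squares replicate 2 of each group. HFD replicate 1 is the highest in 26 of 40 genes and HFD+Cana replicate 2 the lowest in 22.

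Macrophage markers moved with these differences between mice. The summed level of 16 macrophage markers was 3018 and 2066 TPM in the HFD mice and 3408 and 1891 TPM in the HFD+Cana mice, so that replicate 1 exceeded replicate 2 in both groups, as for the lysosomal sum. Between groups 14 of the 16 overlapped, 2 (Cd14 and Cd163) were above in both treated mice, where 24.3% of all genes were, and none was at 0 in any mouse. The lysosomal sum divided by the macrophage sum was 4.79 and 5.95 in HFD and 3.75 and 5.69 in HFD+Cana. With C1qa, C1qb and C1qc left out of the macrophage sum, it was 10.6 and 12.7 in HFD and 8.60 and 12.7 in HFD+Cana. The ratio of geometric means was 1.33 and 1.68 in HFD and 1.13 and 1.80 in HFD+Cana. These ranges overlapped too, and the part of macrophage content in the lysosomal levels was not tested. Glb1 as a percentage of the macrophage sum was 1.94 and 2.48 in HFD and 1.37 and 2.34 in HFD+Cana, and on this scale its groups overlapped.

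The lysosomal genes differed in how their spread changed when they were set against the macrophage sum. Lgmn, chosen after its values were seen, stood at 10.4%, 10.6%, 10.4% and 10.3% of the macrophage sum in HFD replicates 1 and 2 and HFD+Cana replicates 1 and 2, a coefficient of variation of 1.43% beside 27.9% for its TPM. In 9 of the 40 genes (Lgmn, Ctsk, Gla, Lipa, Hexa, Ctsc, Ctsh, Cln3 and Gusb) the spread over the 4 mice was smaller relative to the macrophage sum than as TPM. In the other 31, Glb1 among them, it was smaller as TPM. The macrophage sum itself had a coefficient of variation of 28.3%, above that of the TPM of every lysosomal gene (1.84% to 27.9%). Dividing by it can widen the spread of a steady gene. The split therefore does not measure how closely a gene followed the macrophages. Laptm4a had the smallest spread as TPM, 1.84%, against a median of 12.6% over the 40 genes.

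**Figure D4:**
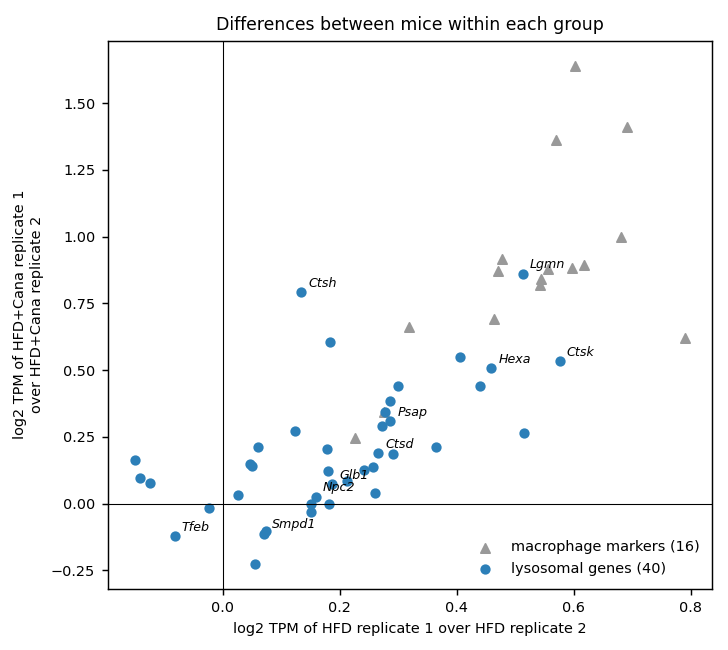
Log2 ratio of TPM in replicate 1 to replicate 2 in the HFD group (horizontal axis) and in the HFD+Cana group (vertical axis); circles are the 40 lysosomal genes and triangles the 16 macrophage markers. In 29 of the 40 lysosomal genes both ratios are above 0, and Lgmn lies among the macrophage markers.

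Other cell types were checked by their markers, with the same 19.8% below and 24.3% above over all genes as background. All 12 adipocyte markers were present in every mouse, with summed levels of 47124 and 50857 TPM in the HFD mice and 47138 and 57809 TPM in the HFD+Cana mice. Of these 12, 5 were below in both treated mice, Plin1 and Lep among them, and 1 (Cfd) was above. Other lists went further in one direction. All 11 mesothelial markers (sum 68.0 and 62.7 TPM in HFD, then 211 and 352 TPM in HFD+Cana) and all 10 hepatocyte markers (sum 9.53 and 12.03 TPM in HFD, then 136 and 187 TPM in HFD+Cana) were above in both treated mice, and 4 hepatocyte markers (Ttr, Fga, Fgg and Cps1) were listed at 0 in both HFD mice. By limma, 3 hepatocyte markers (Apoa1, Ttr and Fabp1) were called higher at an adjusted p under 0.05, among the 6 called of all 13788 genes. Of 8 endothelial markers, 5 were below in both treated mice (sum 1132 and 1036 TPM in HFD, then 851 and 977 TPM in HFD+Cana). Of 10 fibroblast and progenitor markers, 4 were above (Pdgfra, Dpp4, Dcn and Cd34) and 0 below (sum 2751 and 2756 TPM in HFD, then 3955 and 2840 TPM in HFD+Cana), and of 10 skeletal muscle markers, 4 were below and 0 above (sum 287 and 342 TPM in HFD, then 166 and 250.4 TPM in HFD+Cana). Red blood cell markers, 4 of 5 of them above, summed to 1756 and 5940 TPM in HFD and to 14391 and 6673 TPM in HFD+Cana. The part of these cells in the lysosomal values was not tested.

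Another 94 genes of the lysosome form 5 lists that hold none of the 40. In the same fit 92 of them were tested, and none was called. In all, 31 (33.7%) were below in both treated mice and 11 (12%) above, where 19.8% and 24.3% of all genes were. The same 4 mice gave these counts, and the lists were chosen with earlier results of these data known. How the counts change without single mice was not computed. Of the 18 subunits of the proton pump (V-ATPase), which acidifies the lumen, 6 were below, against 19.8% of all genes, and 1 above, against 24.3%, with a median log2 fold change of -0.13. Atp6v1e1 had the smallest p of these, with 283 and 268 TPM in the HFD mice and 223 and 236 TPM in the HFD+Cana mice (log2 -0.26, SE 0.086, limma adjusted p = 0.424). Atp6v0d1 followed with 160.4 and 153 TPM against 136 and 138 TPM (log2 -0.19, limma adjusted p = 0.478). Of 33 other hydrolases and their cofactors, 8 were below, a share near the 19.8% of all genes, and 4 above, against 24.3% (median -0.052). Gm2a, the activator protein that presents a ganglioside to the enzyme of Hexa, had 162 and 154 TPM in the HFD mice and 110.2 and 117 TPM in the HFD+Cana mice (log2 -0.48, SE 0.082, adjusted p = 0.238 in limma), a difference in the direction of Npc2 and Smpd1 that did not pass either.

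In 18 other membrane proteins, 9 were below, against 19.8% of all genes, and 2 above, against 24.3% (median -0.098). Tmem192, a transmembrane protein of lysosomes, had 55.6 and 54.3 TPM in the HFD mice and 41.1 and 45.9 TPM in the HFD+Cana mice (log2 -0.33, limma adjusted p = 0.350), and Mfsd8, another transmembrane protein, had 21.3 and 22.4 TPM against 18.6 and 19.1 TPM (log2 -0.20, limma adjusted p = 0.484). Of 7 genes that sort hydrolases by mannose phosphate, 3 were below, against 19.8% of all genes, and 0 above, against 24.3% (median -0.11). Gnptg, a subunit of the enzyme that adds this tag, had 35.9 and 36.6 TPM in the HFD mice and 30.2 and 29.3 TPM in the HFD+Cana mice (log2 -0.28, limma adjusted p = 0.362). Nagpa, which uncovers the tag, overlapped with 29.5 and 24.8 TPM against 25.7 and 17.4 TPM. Of 16 tested genes that control Tfeb at the lysosome, 5 were below, against 19.8% of all genes, and 4 above, near the 24.3% of all genes (median -0.096). The lower genes included Ppp3ca, the calcineurin subunit of the phosphatase that acts on Tfeb, with 48.1 and 45.1 TPM in HFD against 39.9 and 39.1 TPM in HFD+Cana (log2 -0.23, limma adjusted p = 0.445). Rptor, the mTORC1 subunit raptor, had 14.4 and 13.3 TPM against 11.8 and 11.2 TPM (log2 -0.25, limma adjusted p = 0.478). Ppp3cb, another calcineurin subunit, was among the 4 above. Its level was 32.1 and 34.3 TPM in HFD against 37.3 and 37.4 TPM in HFD+Cana (log2 0.17, limma adjusted p = 0.533). At an unadjusted p under 0.05 the 5 lists held 6 lower genes of 92 (6.52%, near the 5.45% of all genes) and no higher gene, where 5.32% of all genes were higher.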

How the data were processed

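RNA of gWAT from 4 mice was sequenced from polyadenylated stranded libraries on a NovaSeq6000. The authors ran the nf-core/rnaseq pipeline with default settings and deposited TPM per gene from Salmon. GRCm38, mm10 and R 4.3.2 are named in the submitters' processing notes, and the annotation release was not given in the sources used here. TPM sums to a fixed total in each sample and keeps no depth, so the depth is unknown and no counting interval was computed; precision rests on the spread between 2 mice. A total of 19884 to 21129 genes were above 0 TPM per mouse, and mitochondrial genes took 7.04% to 8.50% of TPM.

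The 13788 of 45706 genes whose mean reached 1 TPM were fitted as log2(TPM + 1) with limma 3.58.1 (lmFit, eBayes with trend) in R 4.3.3, with group as the only term and Benjamini-Hochberg adjustment over all genes. This scale understates changes of low genes. Gene positions came from GENCODE M21 (45143 IDs matched). Another annotated gene overlaps 19 of the 40 genes, in 6 on the same strand. Promoters are RefSeq windows of GRCm38.p6, searched for both motifs on both strands. Tables and plots were made with Python 3.11.15, pandas 2.3.3 and matplotlib 3.10.9.

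Members, lists and tests were chosen with earlier results of these data known. Values are given for 22 of the 40 genes by a rule: the 6 of highest mean, Glb1 and its complex, the Tfeb family and every gene whose groups did not overlap. In each pathway list the 2 of smallest p were named, except 1 gene that is not reported here. Gusb, Grn, Npc1, Ctsk and Lgmn, and Ppp3cb from the pathway lists, were added after their values were seen. The alternatives were pseudocounts of 0.1 and 5, no filter, a mean of at least 5 TPM, and quantile and median-of-ratios scaling. Others were TPM without mitochondrial genes, eBayes without trend, a block for the replicate number, each mouse left out, and the shorter motif. For the macrophage ratio they were the sum without C1qa, C1qb and C1qc, and geometric means.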

Additional observations from a re-analysis of the deposited data

How the results depend on the processing

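None of the 22 lysosomal genes with values passed an adjusted p of 0.05 in any alternative, and 16 kept their sign in all of them. The exceptions were Ctsa, at 0.077 with quantile normalization, 0.0059 without mitochondrial genes and -0.11 to 0.10 with single mice left out, and, with single mice left out, Ctsb (-0.36 to 0.027), Neu1 (-0.091 to 0.057), Tfe3 (-0.075 to 0.16), Tfeb (-0.033 to 0.082) and Mitf (-0.010 to 0.12), all as log2 fold changes. The 22 genes are those given by rule. Gusb, Grn, Npc1, Ctsk and Lgmn, added after their values were seen, are not among them, and their signs were not followed through the alternatives. The estimate of Glb1 stayed between -0.36 and -0.17. Its unadjusted limma p was 0.047 in the main fit and 0.074 without the trend. Leaving out single mice moved the median of the 40 genes between -0.22 and 0.031, the number below in all treated mice from 10 to between 10 and 26 (between 30% and 38.3% of all genes) and the number above from 4 to between 5 and 13 (between 36% and 43.6% of all genes), where a single mouse stands for a group. The number lower at an unadjusted p under 0.05 ran from 1 to 5 and the number higher from 0 to 2 in these fits, and quantile normalization and median-of-ratios scaling each gave 8 lower (5.84% and 6.19% of all genes).

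The number of all genes called higher went from 6 to 0 with a pseudocount of 0.1, without the filter, at a mean of at least 5 TPM, with quantile normalization and without any of the mice, to 2 with a pseudocount of 5 and to 13 without the trend; none was called lower. The share of matched promoters with the motif was 14.3% for TCACGTGA and 37.1% for CACGTG. Across 13788 genes, the log2 difference between replicates 1 and 2 in HFD was set against that in HFD+Cana. The Pearson correlation was 0.18 and the Spearman correlation 0.32, from a single difference per group. The replicate numbers do not pair the mice by any label. With the number as a block, 10 of the 40 genes were lower at an unadjusted p under 0.05 and 1 was higher (7.96% and 7.72% of all genes), 2 of all genes were called higher, and no lysosomal gene was called. Only 2 mice a group and no read depth were at hand, so a missed threshold does not show equal levels.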
